A study of Saccharomyces cerevisiae with 35 samples.

Results

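YGR201C is an unnamed gene of Saccharomyces cerevisiae whose product resembles glutathione transferases. It was examined with 4 relatives, TEF4 (YKL081W), CAM1 (YPL048W), GTT1 (YIR038C) and GTT2 (YLL060C), which makes 5 genes of the 6717 in the count table. YGR201C was selected on its very high level in strain BC187, so its BC187 level against the other strains is given below as a description with no test. The relatives were taken for their kinship to YGR201C. The libraries came from 4 diploid strains: BC187 (lineage Wine/European), NCYC3290 (West African), YPS128 (North American) and the laboratory strain BY4743, homozygous for his3Δ1, leu2Δ0 and ura3Δ0 and heterozygous for lys2Δ0 and met15Δ0. Each strain is a single line that stands for its lineage. All were grown in YPD at 30°C and sampled unstressed, after 30 min and after 3 h in 0.7 M NaCl. The labels name NaCl for the unstressed libraries too, but the growth notes place that sample ahead of the salt. There were 3 biological replicates per strain and time, except YPS128 at 30 min with 2, which gives 35 libraries. Totals ran between 3629637 and 5866906 counts. URA3 and LEU2 had 0 counts in all 9 BY4743 libraries and at least 143 in every library of the other strains.

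Glutathione transferases join the tripeptide glutathione to electrophilic compounds and so make them easier to remove from the cell. Their fold is also found in proteins with other jobs. TEF4 and CAM1 each encode a gamma subunit of eEF1B, the nucleotide exchange factor of translation elongation, and carry the fold as an N-terminal domain. GTT1 encodes a glutathione transferase associated with the endoplasmic reticulum, and GTT2 encodes another glutathione transferase. Genes for translation are commonly repressed in stressed yeast, and genes for oxidative defence are commonly induced.

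On the S288c R64 annotation, YGR201C lies on chromosome VII, minus strand, between 902520 and 903197, as a single coding exon of 225 residues. TEF4 lies on chromosome XI (282891 to 284455, plus strand, 412 residues, 1 intron that holds the snoRNA gene SNR38). CAM1 lies on chromosome XVI (464401 to 465648, plus strand, 415 residues), GTT1 on chromosome IX (423809 to 424513, minus strand, 234 residues) and GTT2 on chromosome XII (21138 to 21839, minus strand, 233 residues). Translated from that annotation, YGR201C was identical to CAM1 at 45.7% of 219 aligned residues and to TEF4 at 34.3% of 216. The identity was 22.6% of 199 residues with GTT1 and 27.2% of 125 with GTT2, and 65.6% of 410 between TEF4 and CAM1. The longest run of bases that the coding sequence of YGR201C shares with any relative is shown because it bears on whether reads of 100 bases can be misplaced between them. It is 18 bases, shared with CAM1.
YGR201C and CAM1: ttgaagctggacgttaag
All 579 windows of 100 bases in the coding sequence of YGR201C occur once in the S288c genome, and its longest stretch found elsewhere is 19 bases. The coding windows of TEF4, CAM1, GTT1 and GTT2 are likewise all unique. The reads of BC187 were mapped to S288c, and the BC187 sequence itself was not used here.

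The windows upstream of the 3 genes that rose in NaCl in most strains are printed, 250 bases before the start codon and 50 bases from it, from the S288c R64 genome. Capitals mark AGGGG on either strand, the stress response element read by Msn2 and Msn4. They also mark the letters TTACTAA, searched on both strands too, a site of the oxidative stress factor Yap1, and the motifs do not overlap. The windows are chrVII:903148-903447, chrIX:424464-424763 and chrXII:21790-22089, all on the minus strand.
YGR201C: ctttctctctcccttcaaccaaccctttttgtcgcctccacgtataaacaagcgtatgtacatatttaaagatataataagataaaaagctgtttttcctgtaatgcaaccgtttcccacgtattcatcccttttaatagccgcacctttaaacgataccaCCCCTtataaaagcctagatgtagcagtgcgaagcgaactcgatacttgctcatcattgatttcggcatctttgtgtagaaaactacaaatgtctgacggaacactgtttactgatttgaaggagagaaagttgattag
GTT1: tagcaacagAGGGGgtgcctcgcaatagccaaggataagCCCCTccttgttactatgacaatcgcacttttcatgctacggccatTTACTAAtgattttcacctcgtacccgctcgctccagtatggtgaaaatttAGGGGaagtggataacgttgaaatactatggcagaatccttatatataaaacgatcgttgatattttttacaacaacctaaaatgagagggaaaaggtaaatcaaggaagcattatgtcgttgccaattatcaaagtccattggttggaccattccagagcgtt
GTT2: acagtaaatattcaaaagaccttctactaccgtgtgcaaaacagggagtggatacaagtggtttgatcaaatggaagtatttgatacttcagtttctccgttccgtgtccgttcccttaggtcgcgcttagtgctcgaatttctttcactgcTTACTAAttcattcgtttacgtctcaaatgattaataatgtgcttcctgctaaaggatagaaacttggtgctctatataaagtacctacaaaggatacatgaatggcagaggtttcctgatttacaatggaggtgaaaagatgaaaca
YGR201C held 1 stress response element, 85 to 89 bases before its start codon, and no Yap1 motif. GTT1 held 3 stress response elements and 1 Yap1 motif, GTT2 held 1 Yap1 motif and no stress response element, and the windows of TEF4 and CAM1 held neither. Of 6006 windows of the same length, 21.6% held a stress response element, 2.93% held more than 1, and 7.49% held TTACTAA.

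Unstressed BC187 gave YGR201C 53001, 41627 and 53206 counts, against 15 to 53 counts in the 9 unstressed libraries of the other strains. Divided by library total and TMM factor, the levels were 11045, 11663 and 11090 CPM (counts for each 1000000 counts of the library, normalized) in BC187. They were 8.22, 9.95 and 9.15 CPM in BY4743, 5.40, 4.05 and 3.79 CPM in NCYC3290, and 7.73, 9.02 and 6.07 CPM in YPS128. The 3 BC187 libraries lay within a narrow band and stood far apart from all others. The ratio of the BC187 mean to the mean of the other strains was 1600, and the lowest BC187 library was 1111 times the highest other library. YGR201C took 1.01%, 0.942% and 1.03% of all counts of the unstressed BC187 libraries. The exact 95% Clopper-Pearson intervals, which cover counting error only, were 1.0 to 1.02%, 0.933 to 0.951% and 1.02 to 1.04%. Elsewhere its share was at most 0.00373% in any library.

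Per kilobase of coding sequence, YGR201C had 16616 CPM in unstressed BC187 and ranked 4 among 6007 genes, between ENO2 (18018 CPM per kb) and FBA1 (16110 CPM per kb), which encode the glycolytic enzymes enolase and aldolase. Its relatives were lower in the same libraries. TEF4 had 2789, CAM1 243, GTT1 18.4 and GTT2 6.39 CPM per kb. In the other strains the order was TEF4 first, CAM1 next and GTT1 behind them. In unstressed BY4743 these had 2679, 214 and 44.9 CPM per kb, followed by YGR201C at 13.4 and GTT2 at 5.69. In NCYC3290, YGR201C (6.51 CPM per kb) and GTT2 (6.66 CPM per kb) were closer than their replicate spread. YGR201C ranked between 2666 and 5079 in the 9 strain and time groups outside BC187.

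**Figure D1:**
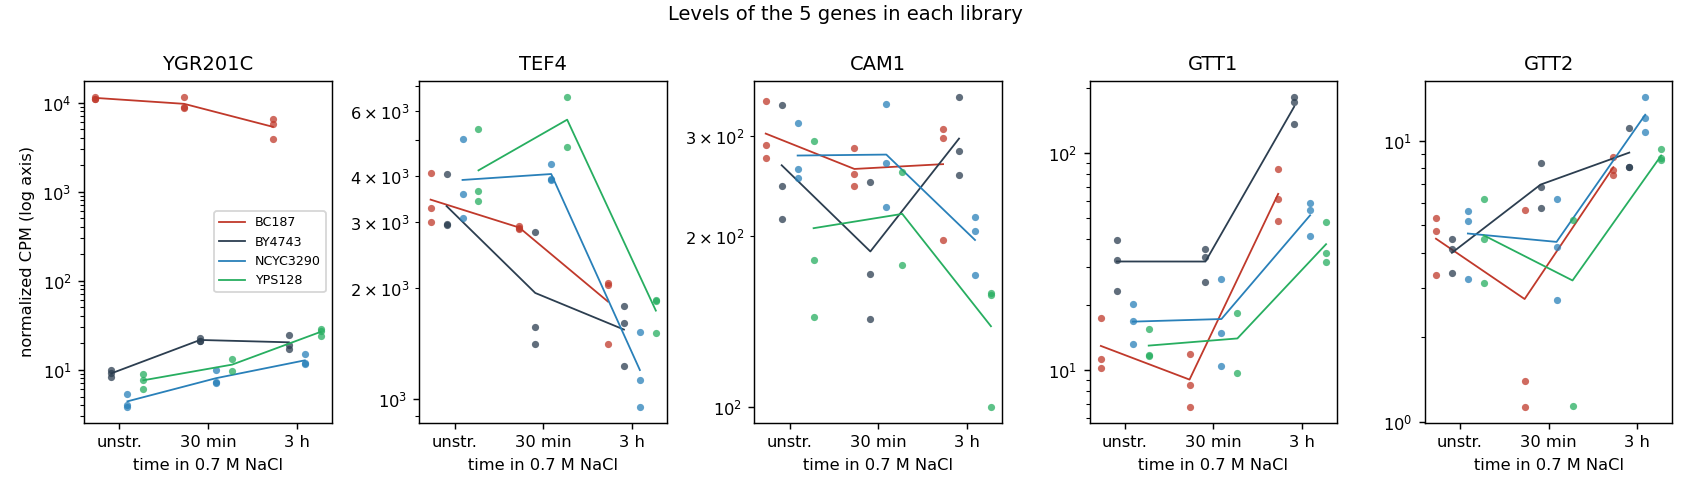
Normalized CPM (log axis, a separate scale for each panel) of YGR201C, TEF4, CAM1, GTT1 and GTT2 in each of the 35 libraries by time in NaCl; points are libraries, coloured by strain, and lines join strain means. YGR201C in BC187 lies between 3862 and 11663 CPM, and all other strains lie between 3.79 and 28.5 CPM.

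The first question was whether salt moved YGR201C the same way where it was very high as where it was low. It did not. At 30 min BC187 had 8648, 11410 and 8932 CPM, and at 3 h 6462, 5682 and 3862 CPM, so that every library at 3 h was below every unstressed one. The log2 fold change was -0.22 (SE 0.17, adjusted p = 0.340) at 30 min and -1.08 (SE 0.17, adjusted p = 4.33e-06) at 3 h, from the quasi-likelihood test of edgeR, adjusted by Benjamini and Hochberg's method over 5997 genes, as for all adjusted p-values of the NaCl response. All 3 BC187 cultures were lower than their own unstressed library at both times.

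In the other strains YGR201C rose. BY4743 had 20.8, 21.2 and 22.7 CPM at 30 min and 24.7, 17.2 and 19.1 CPM at 3 h, none of which overlaps its unstressed values. The log2 fold changes in BY4743 were 1.21 (SE 0.21, adjusted p = 1.2e-05) and 1.17 (SE 0.21, adjusted p = 3.31e-05). The level in BY4743 was thus reached by 30 min, and the 3 h libraries lay on both sides of it. NCYC3290 had 9.89, 7.01 and 7.19 CPM at 30 min and 11.5, 15.0 and 11.8 CPM at 3 h. Its log2 fold change of YGR201C was 0.86 (SE 0.26, adjusted p = 0.0135) at 30 min and 1.52 (SE 0.24, adjusted p = 2.96e-06) at 3 h. The call at 30 min was lost when any replicate number was left out, which removed its libraries in all strains. Without replicate 1 the log2 fold change was 0.82 (adjusted p = 0.129), without replicate 2 it was 0.89 (adjusted p = 0.0750), and without replicate 3 it was 0.78 (adjusted p = 0.0934). YPS128 had 13.1 and 9.72 CPM of YGR201C at 30 min and 27.4, 28.5 and 23.9 CPM at 3 h, the last from replicate 3, which is outside the fit. Its log2 fold change was 0.51 (SE 0.28, adjusted p = 0.243) at 30 min and 1.85 (SE 0.24, adjusted p = 8.67e-08) at 3 h, the largest of the 8 responses of YGR201C. Of the cultures outside BC187, all 8 at 30 min and all 9 at 3 h were above their own unstressed library.

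The ratio of BC187 to the mean of the other strains was therefore 693 at 30 min and 268 at 3 h, against 1600 before salt. The smallest ratio between a BC187 library and any other library was 381 at 30 min and 135 at 3 h. YGR201C still ranked 5 at 30 min and 7 at 3 h per kilobase among 6007 genes in BC187, with 0.482 to 0.638% of the counts at 3 h.

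The strain difference in the response itself was tested as the log2 fold change of a strain minus the mean of all 4, a contrast that cancels the level. YGR201C in BC187 was lower than that mean by -0.81 (SE 0.17, adjusted p = 0.00587) at 30 min and by -1.95 (SE 0.16, adjusted p = 3.16e-09) at 3 h. The 3 h difference was called under every alternative tried, with values between -2.60 and -1.81. The 30 min difference of BC187 was lost without replicate 1 (-0.72, adjusted p = 0.267) or without replicate 3 (-0.74, adjusted p = 0.0888). BY4743 was above the mean at 30 min by 0.62 (SE 0.19, adjusted p = 0.00853), and YPS128 at 3 h by 0.99 (SE 0.20, adjusted p = 7.06e-04). For YGR201C in BY4743 at 30 min, the call was lost without replicate 1 (0.64, adjusted p = 0.0744) or without replicate 2 (0.63, adjusted p = 0.0678). Without replicate 1, which left YPS128 a single library at each NaCl time, the YPS128 difference at 3 h was 1.04. The mean includes BC187. Set against the mean of the 3 strains other than BC187, an alternative added once results were known, the difference of YGR201C was 0.35 (adjusted p = 0.135) in BY4743 at 30 min and 0.34 (adjusted p = 0.232) in YPS128 at 3 h, and neither was called.

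**Figure D2:**
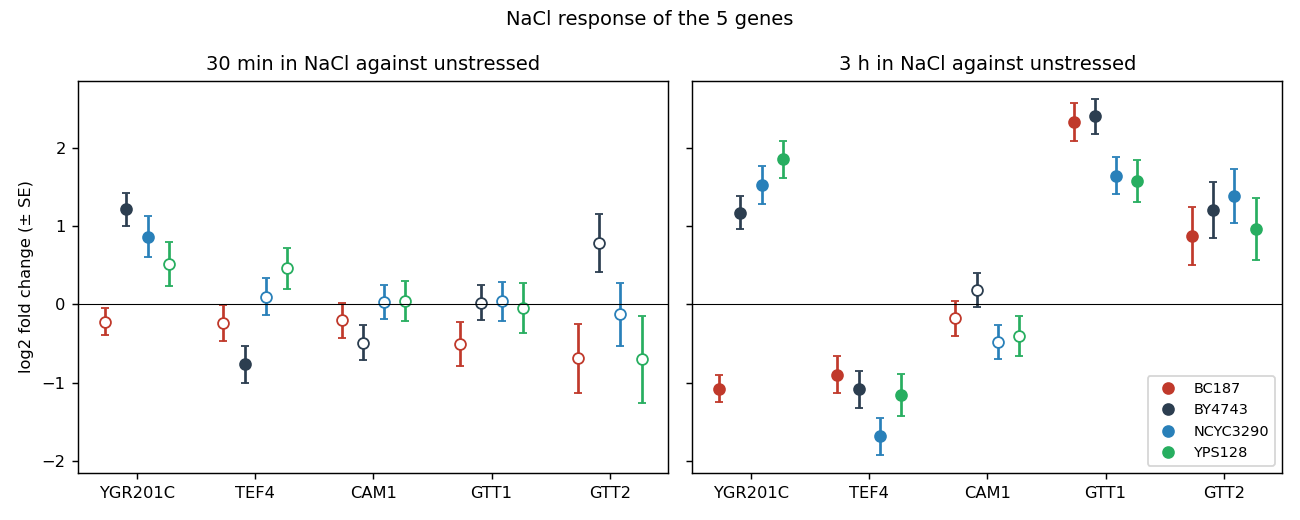
Log2 fold change (± SE, y axis) of the 5 genes at 30 min and at 3 h of NaCl against unstressed libraries of the same strain; filled points passed an adjusted p of 0.05 and open points did not. At 3 h YGR201C is at -1.08 in BC187 and between 1.17 and 1.85 in the other strains, while TEF4 and GTT1 lie on the same side of 0 in all 4 strains.

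Among the unstressed strains other than BC187, which the choice of YGR201C did not use, it was higher in BY4743 than in NCYC3290 by 1.05 on the log2 scale (SE 0.21, adjusted p = 1.47e-04). It was lower in NCYC3290 than in YPS128 by -0.77 (SE 0.23, adjusted p = 0.00965), a call lost without replicate 2 (-0.56, adjusted p = 0.127), without the replicate block (-0.77, adjusted p = 0.0525) and under library totals (-0.54, adjusted p = 0.0540). BY4743 and YPS128 differed by 0.28 (SE 0.19, adjusted p = 0.226). These tests rest on 15 to 53 counts per library.

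The genes on either side of YGR201C did not share its level in BC187. ELP2, a subunit of Elongator, lies 249 bases away, and PCT1, an enzyme of phosphatidylcholine synthesis, 276 bases away, both on the same strand as YGR201C. Unstressed, ELP2 averaged 284 ± 9.66 CPM in BC187, against 262 ± 2.48 in BY4743, 301 ± 41.7 in NCYC3290 and 259 ± 4.18 in YPS128 (SD, n = 3 each). PCT1 averaged 82.4 ± 6.98 CPM in BC187, against 45.4 ± 11.6 in BY4743, 96.3 ± 27.9 in NCYC3290 and 81.6 ± 12.8 in YPS128 (SD, n = 3 each). Against the mean of the 4 unstressed strains, ELP2 in BC187 differed by 0.03 (adjusted p = 0.771) and PCT1 by 0.16 (adjusted p = 0.0855), edgeR's quasi-likelihood test over 5644 genes. Of the next 4 genes, PMT6, a protein O-mannosyltransferase, was lower in BC187 by -0.35 (adjusted p = 7.49e-04), and ADE3, an enzyme of one-carbon metabolism, was higher by 0.17 (adjusted p = 0.0108). YPP1 (0.13, adjusted p = 0.0852) and YCH1 (-0.15, adjusted p = 0.588) were not called. In NaCl, ELP2 fell in BC187 at 3 h by -1.07 (adjusted p = 5.75e-08), and it fell by between -0.94 and -1.13 in the other strains at that time too. The other neighbours did not share that fall as a call in BC187 at 3 h. PMT6 rose by 0.67 (adjusted p = 0.00169) and YCH1 by 0.69 (adjusted p = 0.0332). PCT1 (0.18), YPP1 (-0.20) and ADE3 (-0.42) were not called. In these libraries counts were assigned to strands by a setting that the sources used here do not state, so reads antisense to YGR201C could not be told apart from its own.

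**Figure D3:**
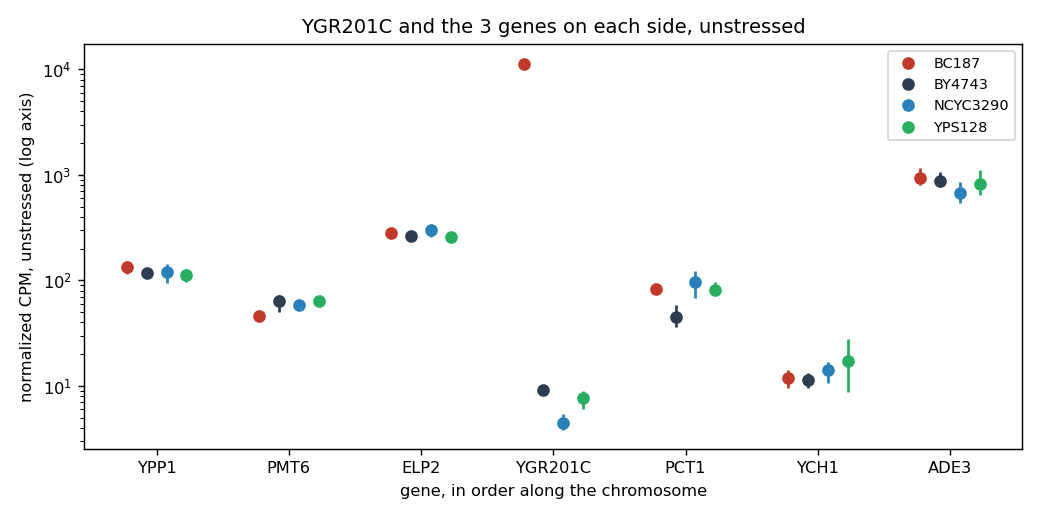
Unstressed normalized CPM (log axis) of YGR201C and the 3 genes on each side of it, in chromosome order; points are strain means of 3 libraries, and vertical lines run from the lowest to the highest library. YGR201C in BC187 (11266 CPM) stands apart, while ELP2 and PCT1 in BC187 lie among the other strains.

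Of the relatives, TEF4 and CAM1 are the pair with a known place in translation. TEF4 was an abundant transcript in every strain. Unstressed it had 2998, 4086 and 3284 CPM in BC187, 2963, 4041 and 2954 CPM in BY4743, 3088, 5052 and 3579 CPM in NCYC3290, and 3416, 5367 and 3657 CPM in YPS128. At 3 h it had 2054, 2032 and 1411 CPM in BC187, 1603, 1787 and 1229 CPM in BY4743, 1124, 1517 and 949 CPM in NCYC3290, and 1845, 1843 and 1509 CPM in YPS128. In each strain all libraries at 3 h were below all unstressed ones. TEF4 fell at 3 h by -0.90 (SE 0.24, adjusted p = 0.00182) in BC187, -1.08 (SE 0.24, adjusted p = 3.59e-04) in BY4743, -1.69 (SE 0.24, adjusted p = 5.7e-07) in NCYC3290 and -1.16 (SE 0.27, adjusted p = 5.21e-04) in YPS128. These calls held in all 13 alternatives, although library totals reduced the YPS128 value to -0.38. At 30 min TEF4 fell in BY4743 only among the calls, by -0.76 (SE 0.24, adjusted p = 0.00607). The BY4743 libraries had 1405, 1567 and 2828 CPM, so that replicate 3 was far above the others, and the call was lost without replicate 1 (-0.65, adjusted p = 0.0877) or without replicate 2 (-0.49, adjusted p = 0.151). The BY4743 response of TEF4 at 30 min was below the mean of the strains by -0.65 (SE 0.21, adjusted p = 0.0106), which was also lost without replicate 1 (-0.35, adjusted p = 0.373) or without replicate 2 (-0.64, adjusted p = 0.0544).

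CAM1, the closest relative of YGR201C in sequence, showed no called response to NaCl in any strain or time. Unstressed it averaged 303 ± 37.5 CPM in BC187, 267 ± 66.0 in BY4743, 277 ± 34.4 in NCYC3290 and 206 ± 77.9 in YPS128 (SD, n = 3 each). At 3 h it averaged 268 ± 62.1 CPM in BC187, 297 ± 49.8 in BY4743, 197 ± 23.2 in NCYC3290 and 139 ± 33.7 in YPS128 (SD, n = 3 each). The log2 fold changes of CAM1 at 3 h were -0.18 in BC187, 0.18 in BY4743, -0.48 in NCYC3290 and -0.40 in YPS128, with adjusted p between 0.0621 and 0.535, and under library totals all 4 were above 0. In YPS128 at 3 h that setting gave 0.39 (adjusted p = 0.0374), while a fall was called without replicate 3 (-0.60, adjusted p = 0.0391) and with all 35 libraries (-0.57, adjusted p = 0.0256). In BY4743 at 30 min the log2 fold change of CAM1 was -0.49 (adjusted p = 0.0588), and without replicate 3 it was called at -0.97 (adjusted p = 0.00218). Left-out replicates also turned the BY4743 value at 3 h, which was -0.04 without replicate 1. The 2 genes for the gamma subunit therefore differed in whether a fall at 3 h was called, but the difference between TEF4 and CAM1 was not tested.

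GTT1 and GTT2 are the relatives with glutathione transferase activity, and both had their highest strain means at 3 h. GTT1 in BC187 had 10.2, 17.4 and 11.3 CPM unstressed, 8.58, 11.8 and 6.76 CPM at 30 min, and 61.6, 84.5 and 48.5 CPM at 3 h. The 3 h libraries stood clear of the others, and at 30 min no BC187 culture was above its own unstressed library. GTT1 rose at 3 h by 2.34 (SE 0.24, adjusted p = 2.42e-09) in BC187, 2.40 (SE 0.22, adjusted p = 3.6e-10) in BY4743, 1.65 (SE 0.23, adjusted p = 5.4e-07) in NCYC3290 and 1.57 (SE 0.27, adjusted p = 8.17e-06) in YPS128. In all 12 cultures GTT1 was higher at 3 h, and the calls held in all 13 alternatives. At 30 min the log2 fold change of GTT1 was -0.51 (adjusted p = 0.161) in BC187 and between -0.05 and 0.04 in the other strains. The strain mean of GTT1 was highest in BY4743 at all times, with 182, 172 and 136 CPM at 3 h, and the highest library of any other strain was 84.5 CPM.

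GTT2 was a weak transcript with 4 to 94 counts per library. In BC187 it had 3.33, 5.32 and 4.79 CPM unstressed, 1.13, 5.69 and 1.40 CPM at 30 min, and 7.85, 8.78 and 7.52 CPM at 3 h. GTT2 rose at 3 h by 0.87 (SE 0.37, adjusted p = 0.0484) in BC187, 1.21 (SE 0.36, adjusted p = 0.00641) in BY4743, 1.39 (SE 0.34, adjusted p = 9.57e-04) in NCYC3290 and 0.96 (SE 0.40, adjusted p = 0.0367) in YPS128. All 12 cultures were higher at 3 h, but calls outside NCYC3290 were lost in some alternatives. Among these were fits that left a replicate number out of all strains. Without replicate 1 the adjusted p of GTT2 at 3 h was 0.239 in BC187. Without replicate 3 it was 0.161 in BC187, 0.106 in BY4743 and 0.138 in YPS128. Without replicate 1 or 2, YPS128 had a single library at each NaCl time. The BC187 call of GTT2 at 3 h held in 5 of 12 alternatives, and its losses included fits that removed no replicate. In BC187 at 30 min, replicate 2 (5.69 CPM) stood apart from the other two, and without replicate 2 a fall of -1.67 was called (adjusted p = 0.00942), against -0.69 (adjusted p = 0.241) with all 3. GTT2 in BY4743 at 30 min was above the mean response by 0.97 (SE 0.34, adjusted p = 0.0220), lost without replicate 3 (1.01, adjusted p = 0.0820) and against the mean of the 3 strains other than BC187 (0.80, adjusted p = 0.0522).

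Counted over the 5 genes, the responses ran as follows. At 3 h 2 rose and 2 fell in BC187, where 54.6% of all genes were called in either direction. In BY4743, NCYC3290 and YPS128 3 rose and 1 fell, where 44.2%, 59.8% and 63.2% of all genes were called. At 30 min 0 of 5 were called in BC187 (34% of all genes), 2 of 5 in BY4743 (62.6%), 1 of 5 in NCYC3290 (27.3%) and 0 of 5 in YPS128 (14.4%). For BC187 and YPS128 at 30 min, 0 of 5 had an unadjusted p under 0.05 in edgeR and 0 of 5 were called by DESeq2. The difference from the mean response was called for 1 of 5 in BC187 at 30 min (2.08% of all genes) and 1 of 5 at 3 h (5.64%), YGR201C in both. It was called for 3 of 5 in BY4743 at 30 min (45.9%), 0 of 5 there at 3 h (22.6%), 0 of 5 in NCYC3290 at 30 min (2.18%) and at 3 h (3.54%), and 0 of 5 in YPS128 at 30 min (10.3%) and 1 of 5 at 3 h (24.1%). Where edgeR called 0 of 5, an unadjusted p under 0.05 was found for 2 in BY4743 at 3 h, 0 in NCYC3290 at 30 min, 2 in NCYC3290 at 3 h and 1 in YPS128 at 30 min, and DESeq2 called 0 in each. With the responses sharing their unstressed libraries, the 2 times of a strain are not independent.

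In unstressed cells GTT1 was lower in BC187 than the mean of the strains by -0.44 (SE 0.11, adjusted p = 0.00226) and in YPS128 by -0.41 (SE 0.11, adjusted p = 0.00399), and it was higher in BY4743 by 0.89 (SE 0.09, adjusted p = 2.13e-09), edgeR's quasi-likelihood test. CAM1 was higher in BC187 by 0.22 (SE 0.07, adjusted p = 0.0168) and lower in YPS128 by -0.37 (SE 0.07, adjusted p = 2.66e-04). TEF4 was lower in BY4743 by -0.13 (SE 0.05, adjusted p = 0.0391) and higher in YPS128 by 0.16 (SE 0.05, adjusted p = 0.0144). No call was made for GTT2. That is 2 of 4 relatives in BC187 (30.2% of 5644 genes called), 2 of 4 in BY4743 (49.6%), 0 of 4 in NCYC3290 (29.6%) and 3 of 4 in YPS128 (40.1%). In NCYC3290, 0 of 4 had an unadjusted p under 0.05 and DESeq2 called 0. Between pairs of strains 2 of 5 genes were called for BY4743 against NCYC3290 (40.6%), 3 of 5 for BY4743 against YPS128 (49.1%) and 2 of 5 for NCYC3290 against YPS128 (31.9%). Without replicate 1 the calls were lost for GTT1 (adjusted p = 0.103) and CAM1 (adjusted p = 0.0739) in BC187 and for TEF4 in BY4743 (adjusted p = 0.105) and YPS128 (adjusted p = 0.121). TEF4 in YPS128 was also lost without replicate 2 (adjusted p = 0.0783) and turned to -0.0070 under library totals, and without replicate 3 CAM1 in BC187 (adjusted p = 0.0542) and TEF4 in BY4743 (adjusted p = 0.155) were lost. Without the replicate block, GTT1 in BY4743 (adjusted p = 2.15e-04) was the one call against the mean that held. In that fit GTT1 had an adjusted p of 0.107 in BC187 and 0.102 in YPS128, CAM1 had 0.441 in BC187 and 0.128 in YPS128, and TEF4 had 0.521 in BY4743 and 0.445 in YPS128. Of 12 alternatives, TEF4 was called against the mean in 5 for BY4743 and in 6 for YPS128. CAM1 was called in 8 for BC187 and in 10 for YPS128. GTT1 was called in 9 for BC187, in 10 for YPS128 and in all 12 for BY4743.

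The wider groups that these genes belong to were described by lists. Of 8 elongation factor genes tested beside the members, 5 fell at 3 h in BC187, 4 in BY4743, 6 in NCYC3290 and 6 in YPS128. In NCYC3290 2 of them rose and in YPS128 1. Over all genes 54.6% were called in either direction in BC187, 44.2% in BY4743, 59.8% in NCYC3290 and 63.2% in YPS128. The number called in either direction, 5 of 8 in BC187 and 4 of 8 in BY4743, was near that share. In these 2 strains all of those calls were falls. Over all genes, falls were called for 1434 of 5997 in BC187, 1221 in BY4743, 1642 in NCYC3290 and 1747 in YPS128. The median log2 fold change of the 8 elongation factor genes was -0.69, -0.60, -1.22 and -1.24 in that order of strains, against 0.08, 0.04, 0.07 and 0.09 over all genes tested. Under library totals it was -0.43, -0.46, -0.65 and -0.46, and 4 of the 8 fell in YPS128. EFB1, the catalytic alpha subunit of eEF1B and partner of TEF4 and CAM1, fell by -1.34 (adjusted p = 5.28e-08) in BC187 and by between -1.31 and -1.80 in the other strains. YEF3, elongation factor 3, fell by -1.15 (adjusted p = 2.09e-04) in BC187. ANB1, an eIF5A gene of hypoxic cells, fell by -2.82 (adjusted p = 5.92e-09) in BC187 and by -1.87 (adjusted p = 1.01e-04) in BY4743, and it rose by 1.95 (adjusted p = 9.69e-06) in NCYC3290. The BC187 response of ANB1 lay below the mean by -2.36 (adjusted p = 6.89e-06), the 1 of 8 called for that difference, against 5.64% of all genes. TEF1 with TEF2 and EFT1 with EFT2 are near-identical pairs, with 13.5% and 16.5% of their windows unique, so their counts are uncertain, and HYP2 was not among the genes tested. The count that fell in BC187 was 3 of 8 without replicate 2. With 10 counts asked of every library, 6 of the 8 were left. Of these 6, 4 fell in BC187, 3 in BY4743, and all 6 in NCYC3290 and in YPS128. Under that filter 0 rose in any strain, so the rise of ANB1 in NCYC3290 was not among the calls.

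Of 7 other genes with the glutathione transferase fold, 3 rose and 3 fell at 3 h in each of the 4 strains, against 44.2 to 63.2% of all genes called, and the 3 that rose were known transferases. Under library totals 4 rose and 3 fell in NCYC3290, and 4 rose and 2 fell in YPS128. ECM4, an omega-class transferase, rose by 2.56 (adjusted p = 1.8e-09) in BC187, 2.62 in BY4743, 1.90 in NCYC3290 and 3.65 in YPS128. GTO3, of the same class, rose by 2.85 (adjusted p = 2.05e-08) in BC187, 2.81 in BY4743, 4.17 in NCYC3290 and 3.91 in YPS128. GTO1, also of that class, rose by 1.53 (adjusted p = 1.41e-08) in BC187 and by between 1.14 and 1.83 in the other strains. The 3 that fell, ARC1, GUS1 and MES1, make the complex of 2 aminoacyl-tRNA synthetases with the cofactor Arc1. URE2 was not called. The median of the 7 was 0.12 in BC187, -0.02 in BY4743, 0.16 in NCYC3290 and 0.21 in YPS128. Under library totals it was 0.38, 0.12, 0.74 and 0.97 in that order of strains. With 10 counts asked of every library, which left 5 of the 7, it was -0.77, -0.47, -0.96 and -1.06. Of those 5, 1 rose and 3 fell in each strain, so the other rises rest on genes with low counts. The fold thus held transferases that rose and translation proteins that fell at 3 h, and YGR201C rose in 3 strains and fell in BC187.

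**Figure D4:**
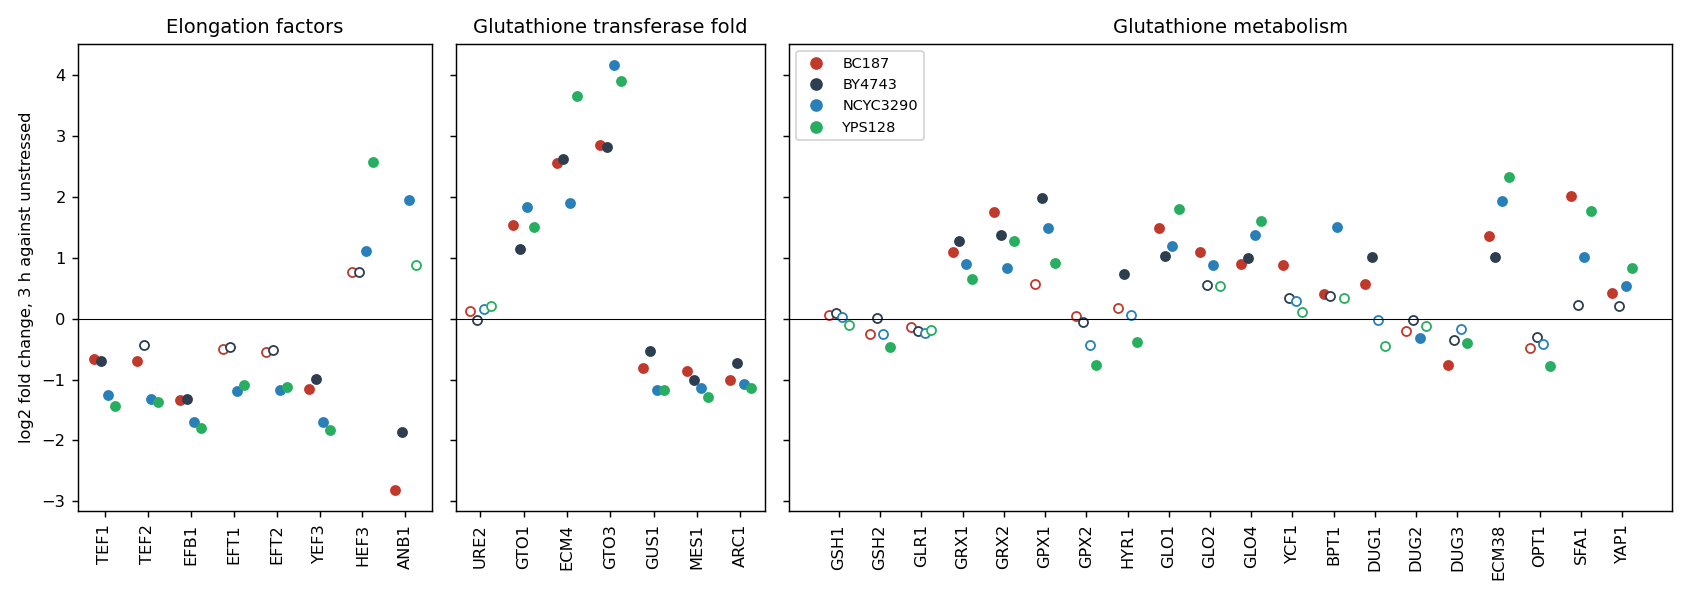
Log2 fold change at 3 h of NaCl against unstressed libraries (y axis) for the genes of 3 lists, coloured by strain; filled points passed an adjusted p of 0.05. EFB1 and YEF3 lie below 0 and GTO1, ECM4 and GTO3 above 0 in all 4 strains, while ANB1 lies at -2.82 in BC187 and 1.95 in NCYC3290.

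Of 20 genes of glutathione and methylglyoxal metabolism, 11 rose and 1 fell at 3 h in BC187. In BY4743 8 rose, in NCYC3290 10 rose and 1 fell, and in YPS128 8 rose and 5 fell. The number called was thus near the share over all genes, 54.6%, 44.2%, 59.8% and 63.2%. Their median log2 fold change was 0.50, 0.35, 0.42 and 0.22 in that order of strains, against 0.08, 0.04, 0.07 and 0.09 over all genes, and under library totals it was 0.75, 0.50, 1.0 and 0.99. SFA1, the glutathione-dependent formaldehyde dehydrogenase, rose by 2.02 (adjusted p = 1.06e-12) in BC187, against 0.22 (adjusted p = 0.212) in BY4743, 1.01 in NCYC3290 and 1.77 in YPS128. GLO1, glyoxalase I, rose by 1.5 (adjusted p = 5.62e-10) in BC187, and GRX2, a glutaredoxin, by 1.75 (adjusted p = 2.18e-09). SFA1 in BC187 was above the mean response by 0.76 (adjusted p = 1.62e-04), and YCF1, a vacuolar transporter of glutathione conjugates, by 0.48 (adjusted p = 0.0225). These were the 2 of 20 called for that difference, against 5.64% of all genes, and the median difference of the 20 was 0.04. GSH1 and GSH2, which make glutathione, were not called in BC187 at 3 h, with log2 fold changes of 0.06 and -0.26. In YPS128 fewer of the 20 fell without replicate 1 or without replicate 2, fits that left it a single library at each NaCl time. Under library totals 15 of the 20 rose and 0 fell there, and with scaling without the YGR201C row 4 of the 20 fell in BC187.

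Genes with a pattern like that of YGR201C were ranked by Pearson's r in log2 CPM, as a description, with points that share strains and cultures. Over the 35 libraries the highest r were 0.97 for YAR062W, 0.93 for YGL260W, 0.90 for ARR1, 0.90 for SMA2 and 0.90 for YPL278C, all of which had higher unstressed means in BC187 than in any other strain. The sizes were far from alike. YAR062W averaged 15.2 CPM in unstressed BC187 and at most 0.199 CPM in the other unstressed strains, SMA2 averaged 29.3 CPM against at most 6.44 CPM, and ARR1 43.1 CPM against at most 25.6 CPM. The relatives had r of -0.06 (TEF4), 0.28 (CAM1), -0.16 (GTT1) and -0.17 (GTT2). With each strain's mean subtracted, the highest were GIP1 (0.84), FDC1 (0.79), YGR109W-B (0.75), FAR1 (0.75) and YOL166C (0.75). YGR109W-B and YOL166C had 0 CPM in all 9 BC187 libraries, so their r rests on the other strains. GIP1 averaged 8.57 CPM at 3 h and 9.55 CPM unstressed in BC187, and 31.2 CPM at 3 h and 5.39 CPM unstressed in BY4743.

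Likeness was also computed within BC187 and outside it, a split added once values were known, and the relatives' r had opposite signs in the 2 sets. Over the 9 BC187 libraries its r was 0.95 with TEF4 (rank 29 of 6018 genes), 0.59 with CAM1, -0.76 with GTT1 and -0.40 with GTT2. The highest were HXK2 (0.98), TIP1 (0.98), RPL28 (0.97), RPP0 (0.97) and TCP1 (0.97), among them a hexokinase and 2 ribosomal proteins. Over the 26 libraries of the other strains, with strain means subtracted, its r was -0.72 with TEF4, -0.35 with CAM1, 0.67 with GTT1 and 0.70 with GTT2. The points are libraries of the same cultures at 3 times, so each r mostly restates the direction of the responses given above.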

How the data were processed

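RNA was depleted of rRNA, made into stranded libraries and sequenced as single-end reads of 100 bases. The authors trimmed with Trimmomatic, mapped to S288c with bwa-mem and counted with HT-Seq, whose strand and multiple-mapping settings are not given in the sources used here. The deposited values are raw counts per gene. Levels (CPM) are counts divided by library total and TMM factor (0.632 to 1.55), times 1000000.

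Counts were tested in R 4.3.3 with edgeR 4.0.16 (filterByExpr, TMM, robust quasi-likelihood fit) with group and replicate number as terms. The NaCl fit had 34 libraries and 5997 genes, without YPS128 replicate 3 at 3 h, and the unstressed fit 12 libraries and 5644 genes. That library was left out because the study's NaCl responses used 2 YPS128 cultures at each time, and its unstressed partner was kept. The replicate number stands for strains grown in parallel. Deviations of same-numbered libraries correlated over 0.1 in 18 of 18 unstressed pairs, 5 of 15 at 30 min and 17 of 18 at 3 h. Alternatives were DESeq2 1.42.0, other scalings and filters, other blocks, all 35 libraries, each replicate left out, other prior counts and, chosen after seeing the data, the mean of the 3 strains other than BC187, ratios by library totals and likeness within strain sets. Leaving a replicate out removed the libraries of that number from every strain, so these fits had fewer libraries throughout. Without replicate 1 or 2, YPS128 was left with a single library at each NaCl time. Log2 CPM used a prior count of 2. Replicates differed beyond counting error (chi-square per degree of freedom 4.18 to 61.1), and the biological coefficient of variation was 15.8% and 8.50%. Annotation matched 6025 of 6717 IDs, and sequences are from RefSeq's R64. Genes named are the members, their neighbours, the genes most like YGR201C, and up to 3 per list by adjusted p in BC187 at 3 h; others were named after their values were seen. Members, lists and tests were chosen with earlier results of these data known.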

Additional observations from a re-analysis of the deposited data

Results flagged for a closer look

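Responses of the 5 genes that differed from the mean response of the 4 strains (edgeR's quasi-likelihood test of the difference) are listed with that difference on the log2 scale. YGR201C differed in BC187 at 30 min (-0.81) and at 3 h (-1.95), in BY4743 at 30 min (0.62) and in YPS128 at 3 h (0.99). TEF4 differed in BY4743 at 30 min (-0.65), and GTT2 in BY4743 at 30 min (0.97). Of these 6, the BC187 difference of YGR201C at 3 h was the one that was called without each replicate in turn. The mean includes BC187. Against the mean of the strains other than BC187, an alternative chosen after seeing the data, some of these differences were not called. These were YGR201C in BY4743 at 30 min and in YPS128 at 3 h, and GTT2 in BY4743 at 30 min.

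The YPS128 replicate 3 library at 3 h, which is outside the fit, had 23.9 normalized CPM of YGR201C, above the 6.07 to 9.02 CPM of the unstressed YPS128 libraries and below the 27.4 and 28.5 CPM of the other 3 h libraries.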

How the results depend on the processing

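Of 1436 values of the 5 genes under other settings, 1290 kept their sign and their side of the threshold, 60 that were not called changed sign, 60 lost a call, 24 gained one and 2 turned direction with a call involved. Both of these came under library totals without TMM: CAM1 in YPS128 at 3 h was 0.39, and TEF4 in unstressed YPS128 against the mean was -0.0070. The call of YGR201C in NCYC3290 at 30 min was lost when 1 replicate number was left out of all strains, with log2 fold changes of 0.78 to 0.89. The 3 h fall of YGR201C in BC187 (-1.36 to -0.83) and its rise in the other strains at 3 h were called under every setting tried. Library totals moved the median of all genes by 0.29 in BY4743 and -0.11 in YPS128 at 30 min, and by 0.26 in BC187, 0.15 in BY4743, 0.58 in NCYC3290 and 0.76 in YPS128 at 3 h, so all changes are relative to the TMM scale. Without the replicate block 11 calls of the 5 genes were lost and 0 gained, and culture as the block changed no call in NaCl. Of 292 counts of called genes under an alternative, 41 differed by over 1.5 times. In unstressed strains against the mean the counts without the replicate block and with it were 585 and 1707 in BC187, 1349 and 2799 in BY4743, 568 and 1668 in NCYC3290, and 1001 and 2262 in YPS128, and with all 35 libraries in 1 fit they were 800, 1772, 845 and 1306. For the difference of BC187 at 30 min the count was 125, against 213 by DESeq2 and 21 to 80 with 1 replicate left out, and at 3 h 338, against 84 to 213. For NCYC3290 at 30 min it was 131, against 232 by DESeq2, 85 with culture as the block and 39 to 103 with 1 replicate left out, and for YPS128 at 30 min 619, against 333 with culture as the block and 75 without replicate 1. With 1 replicate left out, the counts for the difference at 3 h were 499 to 791 in BY4743 (1353 with all), 80 to 109 in NCYC3290 (212) and 199 to 1331 in YPS128 (1443), and that for BY4743 at 30 min was 1606 without replicate 1 (2754). Without replicate 1 the response at 30 min was called for 1027 genes in NCYC3290 (1638 with all) and 417 in YPS128 (866). By CPM without length, YGR201C ranked 7 in unstressed BC187. GTT2 could not be fitted with 10 counts in every library in NaCl. Depth limits GTT2 and, outside BC187, YGR201C, and 2 or 3 cultures per group limit all. In the fits without replicate 1 or 2, YPS128 had a single library at each NaCl time, which limits its counts there.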
